A study of Mus musculus with 4 samples.

Results

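Glucocorticoid response genes were followed in 3T3-L1 cells, a mouse preadipocyte line, on day 2 of adipocyte differentiation. The rule named 9 genes, Nr3c1, Hsd11b1, Fkbp5, Tsc22d3, Zbtb16, Dusp1, Errfi1, Mt1 and Mt2, and took every non-control probe of the array that carries one of these names. It found 16 of 41174 probes, which represent 8 of the 9 genes. Zbtb16, a zinc finger transcription factor, had no probe under its current name, its older names or its accessions, and was not analysed. The rule used no measured value.

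All cells received the same initiation medium, which contained insulin, the synthetic glucocorticoid dexamethasone and the phosphodiesterase inhibitor IBMX. From day 0 they also received 0.1% DMSO as the vehicle, bilberry extracts at 100 μg/mL, delphinidin at 100 nM or cyanidin at 100 nM. RNA was taken on day 2, before the medium containing dexamethasone was replaced, and was hybridised to 1 Agilent array per condition. No array without dexamethasone was analysed, so the values compare additives on top of the hormone and do not measure the response to the hormone. With 1 array per condition there is no replicate check and no test, and all 3 comparisons share the DMSO array.

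Glucocorticoids enter the cell and bind the glucocorticoid receptor, which is held by heat shock protein chaperones and moves to the nucleus to switch genes on or off. Among the genes it induces are inhibitors of the receptor itself, anti-inflammatory proteins, phosphatases that quiet kinase signalling, and metallothioneins. Dexamethasone is a standard part of the mixture that starts adipogenesis in 3T3-L1 cells, where the receptor acts early, before the late adipocyte genes rise.

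A level here is the background-subtracted intensity of a spot divided by the 75th percentile of the non-control spots of its array, so a level of 1 equals that percentile. Levels of different probes cannot be set against each other. The scanner software's own error was 10 to 11.5% of the signal for the 16 probes, which gives 0.20 to 0.22 for a log2 ratio of 2 arrays. It covers the spot and not the culture. This error was near 10% on all but probes 1 and 2 of Nr3c1, so 2 errors is nearly a fixed cut. It is not a measured spread: the member probe with repeated spots had a ratio SD of 0.017 to 0.019 over spots. Every array read the 16 probes as well above background, except that probe 3 of Nr3c1 was marked as an outlier on the cyanidin array and has no value there.

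The bilberry array stood apart from the others. Its 75th percentile was 576, against 861 for DMSO, 1009 for delphinidin and 1016 for cyanidin, while its spike-in control spots were 0.96 above those of the DMSO array on the log2 scale. Over 11966 genes well above background on all 4 arrays, the median log2 ratio to DMSO was 0.17 for bilberry extracts, -0.01 for delphinidin and 0.02 for cyanidin. Bilberry ratios are therefore best read beside 0.17. The part of these array differences in the ratios below was not tested. In bulk RNA, fewer cells of a type and less RNA per cell cannot be told apart.

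The labels call the cells adipocytes. All 9 preadipocyte or fibroblast markers with a value were well above background on all arrays, as were 9 of 10 adipocyte markers. The summed level of the adipocyte markers was 391 with DMSO, 270 with bilberry extracts, 426 with delphinidin and 463 with cyanidin. Such a sum is weighted to the brightest probes, and is read between arrays and not between lists. The lower bilberry sum was carried by Fabp4, a fatty acid carrier, with levels of 265 with DMSO and 137 with bilberry extracts. Without Fabp4, left out after its values were seen, the sums were 126, 132, 195 and 205. In the same order, Lpl made up 95.6, 96.8, 159 and 164 of them. With bilberry extracts 5 of the 9 detected adipocyte markers were above DMSO. Read against the median of all detected genes, 3 of the 9 were above it, and the list median lay at -0.15. With bilberry extracts 2 of the 9 were past 2-fold, where 10.4% of all detected genes were, the glucose transporter gene Slc2a4 at -1.54 and the adiponectin gene Adipoq at -1.07. The 3 above the median were Cfd, which encodes adipsin, at 0.80, Cebpa at 0.50 and Plin1 at 0.39. Cfd was past 2-fold with delphinidin at 1.15 and cyanidin at 1.75, where 2.67% and 1.75% of all detected genes were. With delphinidin 6 of the 9 markers were above DMSO and 3 below, and with cyanidin 7 were above and 2 below. Slc2a4 was below DMSO with both, at -0.61 and -0.28. The preadipocyte sum was 954, 1037, 873 and 826 with DMSO, bilberry extracts, delphinidin and cyanidin. Its higher bilberry value came with the collagen gene Col1a2, at 277 with DMSO and 403 with bilberry extracts. With bilberry extracts 6 of its 9 markers were below DMSO, with delphinidin 5 and with cyanidin all 9. The bilberry median log2 ratio was -0.10, or -0.27 relative to all detected genes. Thy1 was the one marker past 2-fold, at -1.20 with bilberry extracts, where 10.4% of all detected genes were. It had -0.94 with delphinidin and -0.87 with cyanidin. The sums for macrophage markers lay between 0.586 and 0.930, with 3 of 7 not well above background on any array. For endothelial markers they lay between 0.035 and 0.059 with 4 of 5 not above background, for epithelial markers between 0.140 and 0.194, and for skeletal muscle markers between 0.117 and 0.130, each with 3 of 5 not above background. Past 2-fold in these lists were Csf1r with bilberry extracts at 1.16, and Krt8 at 1.17, 1.80 and 1.06 with bilberry extracts, delphinidin and cyanidin. Their levels with DMSO were 0.0172 and 0.0256. Beside them, 10.4%, 2.67% and 1.75% of all detected genes were past 2-fold with these additives. The part of these markers in the results below was not tested.

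**Figure D1:**
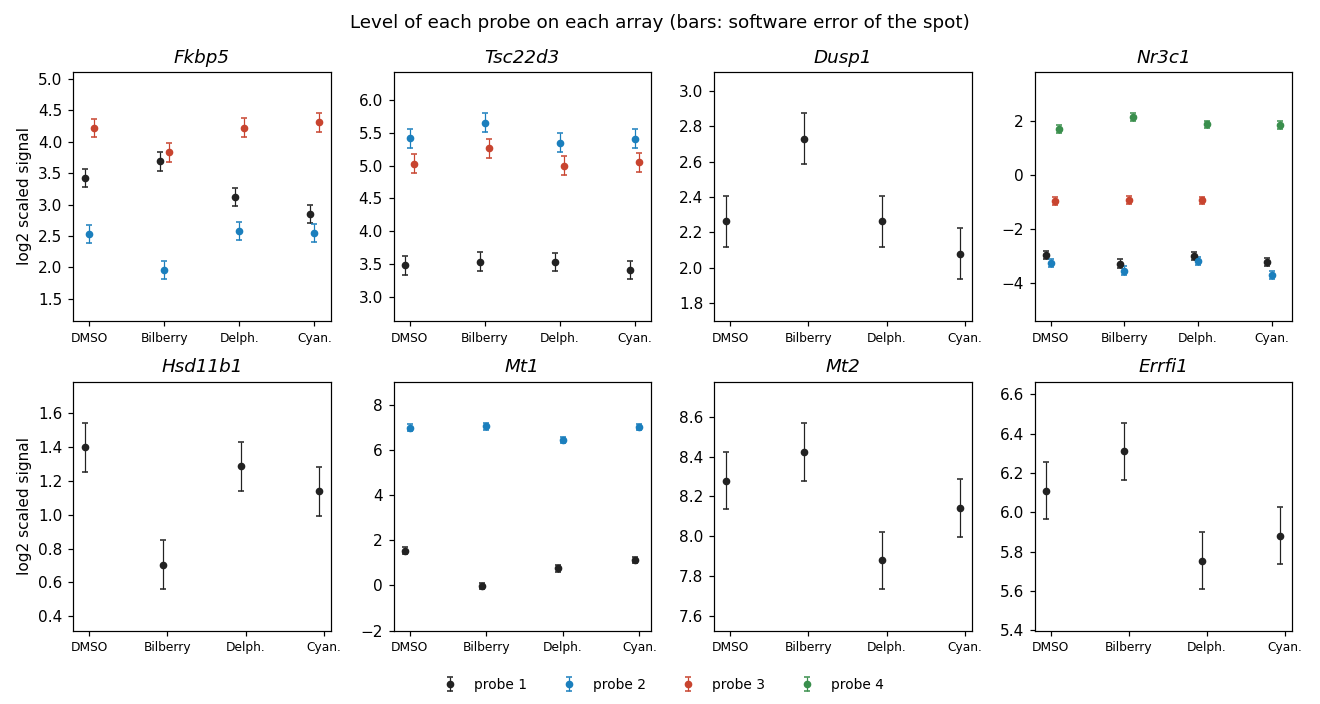
Log2 scaled signal (vertical axis) of each probe of the 8 genes on the DMSO, bilberry, delphinidin and cyanidin arrays (horizontal axis), with bars for the software's error of the spot and colours for probes numbered from the 5′ side of the gene. Hsd11b1 and probe 1 of Mt1 are lowest on the bilberry array. With this 75th percentile scaling Mt2 and probe 2 of Mt1 are lowest on the delphinidin array. That order turned under normexp and spike-in scaling, and held when normexp was refitted without spots marked for their local background.

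The receptor comes first. Nr3c1, which encodes the glucocorticoid receptor, had 4 probes on the minus strand of chromosome 18 (mm8), from chr18:39540503-39540562 for probe 1 to chr18:39536939-39536998 for probe 4. Probe 4, the brightest, had levels of 3.28 with DMSO, 4.39 with bilberry extracts, 3.64 with delphinidin and 3.60 with cyanidin. These are log2 ratios to DMSO of 0.42, 0.15 and 0.14. The bilberry value is the one of these that exceeded 2 times the software's error. Relative to the median of all detected genes it was 0.25, within that error. The bilberry ratio to DMSO turned to -0.04 with the normexp background correction and to -1.12 with spike-in scaling. It was 0.39 when normexp was refitted without spots marked for their local background.

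The other Nr3c1 probes did not follow probe 4. Probe 3 had levels of 0.513, 0.519 and 0.517 with DMSO, bilberry extracts and delphinidin. Probe 1 read 0.129, 0.102, 0.123 and 0.108 over the DMSO, bilberry, delphinidin and cyanidin arrays, and probe 2 read 0.105, 0.0850, 0.109 and 0.0754. Both dim probes were thus lowest on the bilberry or the cyanidin array. Their bilberry ratios of -0.33 and -0.30 changed sign under the normexp correction, to 1.30 and 1.57. They were 0.01 and 0.13 under its refit. For bilberry extracts the most 3′ probe exceeded the most 5′ probe by 0.75 on the log2 scale, over 3564 bases. Of 3715 genes with probes that could be ordered in this way, 5.73% had a difference at or above that, and the median difference was -0.02. The Nr3c1 difference was 0.52 with quantile normalization and 0.37 under the normexp refit without spots marked for their local background, and it turned to -1.34 under normexp itself.

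Hsd11b1 encodes the enzyme 11β-hydroxysteroid dehydrogenase type 1, which regenerates active glucocorticoid from its inactive keto form inside fat and liver cells. Its probe lies at chr1:194922699-194922758 on the minus strand (mm8). Its level was 2.63 with DMSO, 1.63 with bilberry extracts, 2.44 with delphinidin and 2.20 with cyanidin. The bilberry array was the lowest, with a change of -38.1% from DMSO, a log2 ratio of -0.69 that exceeded 2 errors. Of the detected genes, 11.0% had a lower bilberry ratio. The delphinidin and cyanidin ratios, -0.11 and -0.26, were within that error. The bilberry ratio stayed below 0 under every scaling and background correction tried, between -2.23 and -0.69.

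Other genes of steroid metabolism and transport were taken from a list of 8, of which 5 were detected. Past 2-fold in either direction were 10.4% of all detected genes with bilberry extracts, 2.67% with delphinidin and 1.75% with cyanidin, so that few of 5 genes would be past it at these shares. None of the 5 was past 2-fold with any additive, although all 5 were with bilberry extracts under spike-in scaling. H6pd, which supplies the cofactor of the Hsd11b1 enzyme, had log2 ratios of 0.27, -0.12 and -0.04 with bilberry extracts, delphinidin and cyanidin. Abcb1b, a drug and steroid exporter, had -0.85, -0.36 and -0.38.

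Fkbp5 encodes FKBP51, a co-chaperone that the receptor induces and that lowers the receptor's affinity for hormone. It had 3 probes on the minus strand of chromosome 17 (mm8), at chr17:28165639-28165698, chr17:28128237-28128296 and chr17:28127522-28127581. Probe 3 read 18.5, 14.2, 18.7 and 19.7 over the DMSO, bilberry, delphinidin and cyanidin arrays. Probe 2 read 5.76, 3.88, 5.96 and 5.84. On both of these probes the bilberry array was the lowest and the other 3 arrays lay close together. The bilberry log2 ratios were -0.38 and -0.57, the second of them past 2 errors and equal to a change of -32.7%. Both stayed below 0 under every processing tried, between -2.11 and -0.38.

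Probe 1 of Fkbp5, which lies 38117 bases upstream of probe 3, gave another order. Its level was 10.8 with DMSO, 12.8 with bilberry extracts, 8.68 with delphinidin and 7.20 with cyanidin. Here cyanidin was the lowest, with a log2 ratio of -0.58 past 2 errors, and 4.83% of detected genes had a lower cyanidin ratio. The bilberry ratio of 0.26 on this probe changed sign to -0.32 under normexp and -1.28 with spike-in scaling. It was 0.22 under the refitted normexp. Over its 3 probes the bilberry ratios of Fkbp5 spanned 0.83 and the cyanidin ratios 0.67. A range at least this wide was found in 17.6% and 10.5% of 5018 genes with several detected probes.

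Tsc22d3 encodes GILZ, the glucocorticoid-induced leucine zipper protein, which carries part of the hormone's anti-inflammatory effect. Its 3 probes lie within 1 stretch of the minus strand of chromosome X (mm8), from chrX:135886776-135886835 to chrX:135886092-135886152. Probe 2 read 42.8, 50.3, 40.8 and 42.5 over the DMSO, bilberry, delphinidin and cyanidin arrays. Probe 3 read 32.7, 38.4, 32.0 and 33.1, and probe 1 read 11.2, 11.6, 11.6 and 10.6. All 9 log2 ratios lay between -0.07 and 0.23, within 2 errors. The bilberry ratios of 0.05, 0.23 and 0.23 sat close to the 0.17 of all detected genes. They turned to -0.55, -0.41 and -0.40 under normexp, where probes 1 and 2 passed 2 errors and all detected genes had a median of 0.05. They were -0.01, 0.17 and 0.18 under the refitted normexp, where all detected genes had 0.20. They were -0.17, -0.04 and -0.02 with quantile normalization and -1.49, -1.31 and -1.31 with spike-in scaling, where all detected genes had -1.37. Of the 4 genes with several probes, Tsc22d3 had the narrowest range over its probes with bilberry extracts, 0.18, against a median of 0.34 over the 5018 genes.

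The palindromic glucocorticoid response element is AGAACA followed by TGTTCT with any 3 bases between them, and the letters AGAACA alone make up its left arm. Both were searched on both strands in windows that hold the 250 bases before each RefSeq start site (GRCm38.p6), where 7 of the 9 genes had 10 windows. The recorded windows run past the start site, to base 94172667 for Mt2. The bases after it were left out of the search, for the shares of all windows as for the members. The full element was in none of these windows and in 0.00913% of 32851 windows of all genes. The short element was in 16.1% of all windows and in 1 window of the members, that of the most 5′ start of Tsc22d3. The 250 bases of that window before the start are shown because they hold the one match, written 5′ to 3′ along the minus strand. The match, 185 bases before the start, is in capitals. The stretch shown spans chrX:140600523-140600772.
Tsc22d3 upstream window: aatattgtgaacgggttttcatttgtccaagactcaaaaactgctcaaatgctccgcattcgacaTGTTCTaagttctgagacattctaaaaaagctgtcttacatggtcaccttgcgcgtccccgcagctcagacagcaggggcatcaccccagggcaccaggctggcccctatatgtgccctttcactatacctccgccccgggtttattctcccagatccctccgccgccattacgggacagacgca
A match is a description of letters, and the known hormone-bound elements of these genes often lie farther away than this window reaches.

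Dusp1 and Errfi1 encode inhibitors of growth factor signalling. Dusp1 encodes the phosphatase MKP-1, which inactivates MAP kinases, and its probe lies at chr17:26233451-26233508 on the minus strand (mm8). Its level was 4.80 with DMSO, 6.63 with bilberry extracts, 4.80 with delphinidin and 4.22 with cyanidin. The bilberry array was the highest, with a log2 ratio of 0.47 past 2 errors, and 73.3% of detected genes had a lower bilberry ratio. Relative to the median of all detected genes it was 0.30, within 2 errors. The ratio was 0.30 with quantile normalization and 0.41 under the refitted normexp. It turned to -0.08 under normexp and -1.07 with spike-in scaling.

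Errfi1 encodes MIG6, a direct inhibitor of the EGF receptor, and its probe lies at chr4:149712217-149712276 on the plus strand (mm8). Its level was 69.1 with DMSO, 79.3 with bilberry extracts, 53.9 with delphinidin and 58.9 with cyanidin. Bilberry was again the highest array and delphinidin the lowest, but the log2 ratios of 0.20, -0.36 and -0.23 were all within 2 errors. The bilberry ratio turned to -0.05 with quantile normalization and to -1.34 with spike-in scaling. Under normexp it turned to -0.45, where it passed 2 errors and lay below delphinidin at -0.34. It was 0.14 under the refitted normexp. Among immediate early and ERK feedback genes, 27 of 29 were detected. With bilberry extracts 2 of the 27 were past 2-fold higher, Egr3 at 1.54 and Dusp8 at 1.09 on the log2 scale, and with delphinidin 1 was lower, the MAP kinase phosphatase Dusp2 at -1.07. None was past 2-fold with cyanidin. The levels of Egr3 and Dusp8 with DMSO were 0.0228 and 0.0745, and that of Dusp2 was 3.38. Of all detected genes, 10.4% were past 2-fold with bilberry extracts, 2.67% with delphinidin and 1.75% with cyanidin. The bilberry count of 2 was 0 under the refitted normexp, which leaves out spots marked for their local background, 6 under normexp and 17 with spike-in scaling. The median of the list stood 0.19, 0.03 and -0.00 from that of all detected genes.

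The metallothioneins Mt1 and Mt2 are small cysteine-rich proteins that hold zinc and copper. Their genes lie side by side on the plus strand of chromosome 8 and are known to be induced by metals, through metal response elements, as well as by glucocorticoids and oxidants. In the 250 bases before the start of Mt2, 3 matches were found to the metal response element, searched on both strands as TGCACNC or TGCGCNC. They lie 223, 128 and 50 bases before the start. The Mt1 window held 1 match, 23 bases before the start. One or more matches were in 21.4% of all windows and 3 or more in 1.26%. The 250 bases before the start of Mt2, chr8:94172368-94172617 (GRCm38.p6), are shown for their several matches. The Mt1 match is shown with its neighbouring bases, and matches are in capitals.
Mt2 upstream window: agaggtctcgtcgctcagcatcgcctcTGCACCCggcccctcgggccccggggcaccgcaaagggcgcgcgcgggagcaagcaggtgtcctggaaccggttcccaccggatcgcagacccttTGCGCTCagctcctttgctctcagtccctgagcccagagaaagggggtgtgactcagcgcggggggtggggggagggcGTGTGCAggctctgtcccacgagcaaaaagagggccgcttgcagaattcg
Mt1 match: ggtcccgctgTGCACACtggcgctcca
Hsd11b1 also held 1 such match, 237 bases before its start, and the windows of Errfi1, Dusp1, Fkbp5 and Tsc22d3 held none.

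Mt2 was read by a probe at chr8:97062600-97062659 (mm8). Its level was 311 with DMSO, 343 with bilberry extracts, 235 with delphinidin and 283 with cyanidin. Delphinidin was the lowest array with this scaling, at a log2 ratio of -0.40 that did not pass 2 errors, and 10.5% of detected genes had a lower delphinidin ratio. The delphinidin ratio was -0.19 with quantile normalization and -0.14 with spike-in scaling. The bilberry and cyanidin ratios were 0.14 and -0.14. The bilberry ratio turned to -0.21 with quantile normalization, -0.52 under normexp and -1.40 with spike-in scaling, which in each case made bilberry the lowest array. Under the refitted normexp it was 0.08, and delphinidin at -0.39 was the lowest.

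Mt1 had a pair of probes that gave different pictures. Probe 2, at chr8:97069240-97069299 (mm8), was spotted 10 times on each array, so it is the one member with repeated spots. Its level was 128 with DMSO, 133 with bilberry extracts, 87.6 with delphinidin and 130 with cyanidin. With the 75th percentile scaling the delphinidin array was the lowest and the other 3 lay together. The bilberry ratio turned to -0.29 with quantile normalization and to -1.48 with spike-in scaling. Under normexp it turned to -0.59, below delphinidin at -0.52. Under the refitted normexp it was 0.007, and delphinidin at -0.52 was the lowest. Over the spots with a value on both arrays, the log2 ratio to DMSO was -0.54 ± 0.017 with delphinidin (SD, n = 7 spots), 0.06 ± 0.019 with bilberry extracts (n = 8 spots) and 0.03 ± 0.019 with cyanidin (n = 8 spots). These are repeated spots of the same RNA and not replicate cultures. The delphinidin ratio stayed below 0 under every processing tried, between -0.54 and -0.29, and 6.04% of detected genes had a lower one.

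Probe 1 of Mt1, at chr8:97069073-97069132 (mm8), lies 167 bases upstream of probe 2. Its level was 2.92 with DMSO, 0.987 with bilberry extracts, 1.69 with delphinidin and 2.17 with cyanidin. DMSO was the highest array and bilberry the lowest, with a change of -66.2% from DMSO. The log2 ratios were -1.56, -0.79 and -0.43, all past 2 errors, and 2.24%, 2.64% and 9.02% of detected genes had lower ratios with the same additives. Each of these ratios stayed below 0 under every processing tried, and the bilberry ratio ranged from -3.11 to -1.51.

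For bilberry extracts the Mt1 probes thus differed by 1.62 on the log2 scale. The difference was 1.33 with quantile normalization, 1.52 under the refitted normexp and 0.92 under normexp. Among the 3715 genes with ordered probes, 0.619% had a 3′ probe that exceeded the 5′ probe by this much or more. The difference was 0.24 with delphinidin and 0.46 with cyanidin, reached by 17.7% and 13.5% of these genes. Probe 1 had 1 spot per array, so its ratio has no repeat on the array. The exon or intron that each probe reads is not given in the sources used here. The 3 genes whose ratios were nearest to those of probe 1 among 11966 genes were Tnnc2, Rhbdl1 and Casp4, at Euclidean distances of 0.0968, 0.126 and 0.134 over the 3 log2 ratios, which share the DMSO array.

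**Figure D2:**
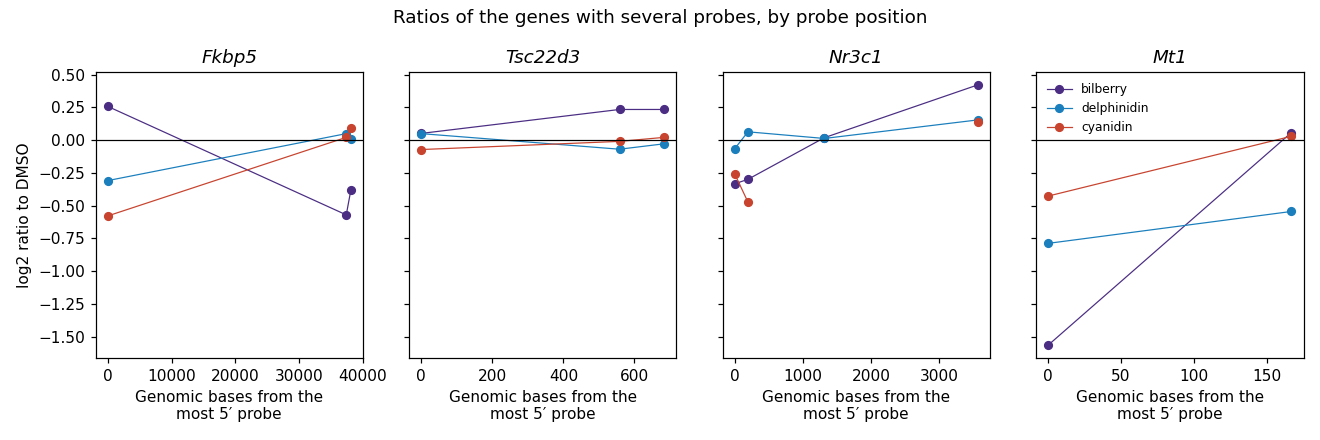
Log2 ratio to the DMSO array (vertical axis) of each probe of the 4 genes with several probes against its distance in genomic bases from the most 5′ probe (horizontal axis), coloured by additive. The bilberry values of Mt1 run from -1.56 to 0.06 over 167 bases, while those of Tsc22d3 stay between 0.05 and 0.23, and Nr3c1 has no cyanidin value for probe 3.

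Read by the brightest probe of each gene, 0 of the 8 genes were past 2-fold with any of the 3 additives. With spike-in scaling the bilberry count was 8. Among all 19213 named genes, 13.7% were past 2-fold in either direction with bilberry extracts, 7.27% with delphinidin and 6.87% with cyanidin. Among the 11966 detected genes the shares were 10.4%, 2.67% and 1.75%. At these shares a count of 0 among 8 genes is close to the background. The median log2 ratio of the 8 genes was 0.17, -0.09 and -0.07, against 0.17, -0.01 and 0.02 over all detected genes. Of the 16 probes, 1 was past 2-fold, probe 1 of Mt1 with bilberry extracts, where 6.94% of 21441 detected probes were past 2-fold lower.

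With bilberry extracts the log2 ratios of the 16 probes ran from -1.56 to 0.47, and 10 of them were above 0. Past 2 errors were 5 probes, namely Dusp1 and probe 4 of Nr3c1 above DMSO and Hsd11b1, probe 2 of Fkbp5 and probe 1 of Mt1 below it. Read against the median of all detected genes, a reading added after the data were seen, 0 were past 2 errors above and 6 below. Dusp1 and probe 4 of Nr3c1 then no longer passed, and probe 3 of Fkbp5 at -0.55 and probes 1 and 2 of Nr3c1 at -0.50 and -0.47 did. With delphinidin the ratios ran from -0.79 to 0.15, and 2 probes, both of Mt1, passed that error below DMSO. With cyanidin 15 probes had a ratio, from -0.58 to 0.14, and 3 passed the error below DMSO, namely probe 1 of Fkbp5, probe 2 of Nr3c1 and probe 1 of Mt1. No probe passed it above DMSO with delphinidin or cyanidin, and against the median of all detected genes these counts were also 2 and 3. Probe 2 of Nr3c1 no longer passed with cyanidin under normexp, its refit and quantile normalization, at -0.31, -0.31 and -0.30. With spike-in scaling no probe passed with cyanidin, and with delphinidin probe 2 of Mt1 no longer passed and probe 4 of Nr3c1 passed above DMSO at 0.41. For bilberry extracts the counts above and below DMSO were 2 and 9 under normexp, 0 and 4 under its refit and with quantile normalization, and 0 and 16 with spike-in scaling. Hsd11b1, probe 2 of Fkbp5 and probe 1 of Mt1 passed below DMSO under each of these.

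**Figure D3:**
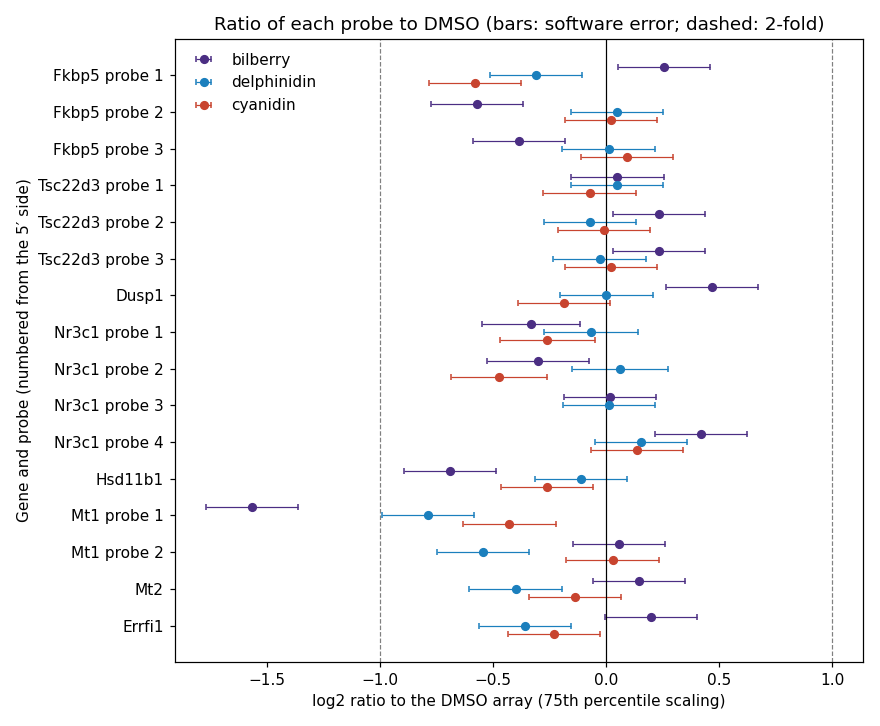
Log2 ratio to the DMSO array (horizontal axis) of the 16 probes (vertical axis) with bilberry extracts, delphinidin and cyanidin, with bars for the software's error of the ratio and dashed lines at 2-fold. The bilberry value of probe 1 of Mt1 is beyond a dashed line, and no other point is.

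Delphinidin and cyanidin were given at the same dose and read on the same day. Both are anthocyanidins, and delphinidin carries an additional hydroxyl group on its B ring. This was 1 pair of compounds with 1 array each, so no test was possible. Across 15 probes the log2 ratio of delphinidin over cyanidin ran from -0.57 to 0.54, and none was past 2-fold, against 0.719% of detected genes. The lowest was probe 2 of Mt1 at -0.57, with 1.55% of detected genes below it, and it stayed between -0.57 and -0.55 under every processing tried. Mt2 lay at -0.26 and probe 1 of Mt1 at -0.36, both within 2 errors, and Mt2 was at -0.07 with quantile normalization. All 3 metallothionein values were below 0 under every processing tried, and probe 2 of Mt1 was the one past 2 errors.

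At the other end, probe 2 of Nr3c1 lay at 0.54, past 2 errors, with 98.2% of detected genes below it. The value was 0.33 under normexp, within 2 errors. The level of this probe was 0.109 with delphinidin and 0.0754 with cyanidin. Probe 4 of Nr3c1, the brightest, lay at 0.02 and probe 1 at 0.19. Fkbp5 probes lay at 0.27, 0.03 and -0.08, Tsc22d3 probes at 0.12, -0.06 and -0.05, Dusp1 at 0.19, Hsd11b1 at 0.15 and Errfi1 at -0.13. Each value here other than that of probe 2 of Nr3c1 was within 2 errors, or about 0.41 either way on the log2 scale. That cut comes from the software's error and does not show which differences the spots could resolve. With 1 array per condition, differences of this size could not be told from spread between cultures.

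Other genes known to be induced by glucocorticoids were taken from a list of 30, of which 27 were detected. With bilberry extracts 2 of the 27 were past 2-fold higher and 1 lower, with delphinidin 1 higher and 1 lower, and with cyanidin 1 higher. Over all detected genes the shares past 2-fold in either direction were 10.4%, 2.67% and 1.75%. The bilberry count of 3 was 0 under the refitted normexp, 8 under normexp and 19 with spike-in scaling. Sult1a1, a sulfotransferase that also conjugates phenolic compounds, was past 2-fold with all 3 additives, at log2 ratios of 1.00, 1.36 and 1.49. Glul, glutamine synthetase, was at 1.05 with bilberry extracts. Klf15, a transcription factor of adipocytes and of amino acid breakdown, was at -1.16 with bilberry extracts, -1.26 with delphinidin and -0.72 with cyanidin. The levels of Sult1a1, Glul and Klf15 with DMSO were 0.244, 26.2 and 0.0831. The median of the list was 0.26, -0.20 and -0.23, which lay 0.09 above, 0.19 below and 0.25 below that of all detected genes.

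Genes that glucocorticoids are known to repress came from a list of 16, of which 9 were detected. With bilberry extracts 1 of the 9 was past 2-fold higher and 2 lower, with delphinidin 2 were higher and with cyanidin 4. Beside them stand 10.4%, 2.67% and 1.75% of all detected genes past 2-fold. The bilberry count of 3 was 5 with spike-in scaling. Mmp3, a matrix metalloproteinase with a DMSO level of 0.030, had log2 ratios of 1.77, 2.13 and 1.39 with bilberry extracts, delphinidin and cyanidin. The chemokine gene Ccl2 had 0.74, 1.09 and 1.22, and its neighbour in function Ccl7 had 0.71, 0.93 and 1.21. The remaining one past 2-fold with cyanidin was Mmp9, at 1.21. The chemokine gene Cxcl5 was at -1.75 and the cytokine gene Il6 at -1.03 with bilberry extracts, from DMSO levels of 0.333 and 0.0875. The list thus held values on both sides of DMSO, and its median stood 0.03, -0.10 and 0.07 from that of all detected genes.

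**Figure D4:**
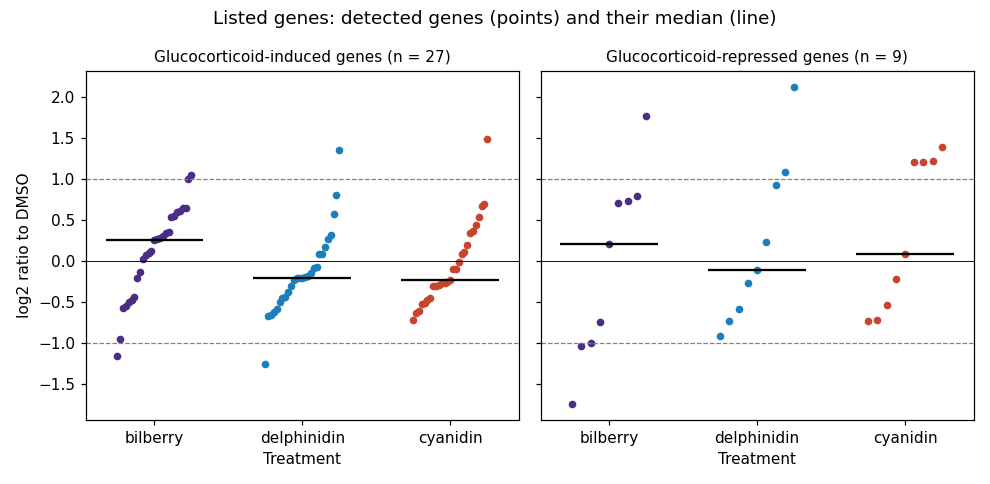
Log2 ratio to the DMSO array (vertical axis) of each detected gene of the lists of glucocorticoid-induced (27 genes) and glucocorticoid-repressed genes (9 genes) for each additive (horizontal axis), with a line at the median and dashed lines at 2-fold. The induced genes have medians of 0.26, -0.20 and -0.23 with bilberry extracts, delphinidin and cyanidin.

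Receptor chaperones and coregulators came from a list of 23, of which 21 were detected. With bilberry extracts 1 of the 21 was past 2-fold, the acetyltransferase gene Ep300 at -1.01, and with delphinidin and cyanidin there was none. The level of Ep300 with DMSO was 0.103. This bilberry count stands beside 10.4% of all detected genes, and it was 2 with scaling to the median of detected probes, 4 under normexp and 19 with spike-in scaling. The median of the list stood 0.07, 0.10 and 0.05 above that of all detected genes. Among metal and oxidant response genes, 12 of 16 were detected. Hmox1, the oxidant-induced heme oxygenase, was past 2-fold higher with bilberry extracts and delphinidin, at log2 ratios of 1.87 and 1.23, and had 0.54 with cyanidin. It was the 1 gene of the 12 past 2-fold with bilberry extracts and the 1 with delphinidin, beside 10.4%, 2.67% and 1.75% of all detected genes with bilberry extracts, delphinidin and cyanidin. None of the 12 was past 2-fold lower. The bilberry count of 1 was 2 with quantile normalization, 3 under normexp and 8 with spike-in scaling. Mtf1, which encodes the factor that binds metal response elements, had 0.37, 0.06 and 0.00, and the zinc exporter gene Slc30a1 had 0.56, 0.19 and 0.29. The median of the list stood 0.28, 0.13 and 0.09 above that of all detected genes.

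Bilberry ratios moved furthest with the processing, by up to 1.87 on the log2 scale under normexp and up to 1.54 with spike-in scaling. The largest shift was 0.43 when normexp was refitted without spots marked for their local background. Spike-in scaling placed the median of all detected genes at -1.37 and the 16 probes between -3.11 and -1.07, which changed the sign of 10 of them. The normexp correction changed the sign of 11, its refit without spots marked for their local background of 3, and quantile normalization of 6. The 4 bilberry ratios of Hsd11b1, probes 2 and 3 of Fkbp5 and probe 1 of Mt1 were below 0 under all of them. Delphinidin changed sign in 4 probes under spike-in scaling and 3 under quantile normalization, and cyanidin in 5 of 15 and 2 of 15. The signs of the delphinidin ratios of both Mt1 probes, Mt2 and Errfi1 did not change, nor those of probe 1 of Fkbp5.

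**Figure D5:**
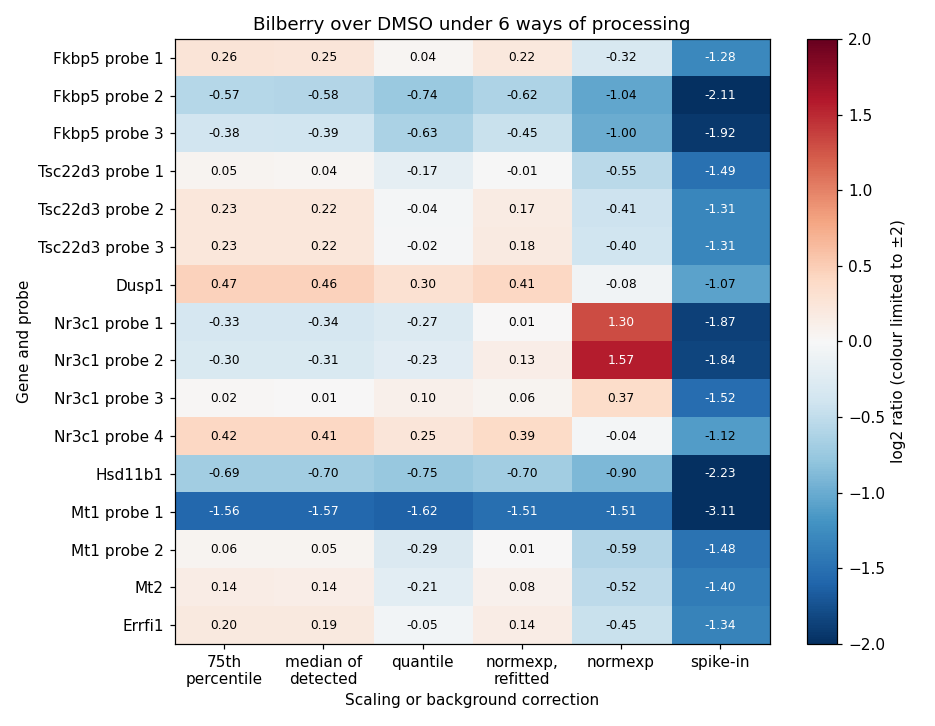
Log2 ratio of bilberry extracts over DMSO (colour and printed values) for the 16 probes (vertical axis) under the main and alternative scalings and background corrections (horizontal axis). Spike-in scaling puts all 16 probes below 0, and probe 1 of Mt1 lies between -3.11 and -1.51 throughout.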

How the data were processed

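Total RNA of 3T3-L1 cells on day 2 was measured on Agilent Whole Mouse Genome arrays in 1 colour, with 1 array per condition (DMSO, bilberry extracts, delphinidin, cyanidin) on 1 slide. The authors deposited the spot files of Feature Extraction 9.5, whose processed signal is an intensity after background subtraction and detrending. A deposited table of the series gave the same member ratios.

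Intensities were scaled so that the 75th percentile over non-control spots equalled 1 on every array, and log2 was taken. Spots marked as outliers were left out, and repeated spots of a probe were averaged. A gene was detected when its brightest probe was well above background on all 4 arrays, and past 2-fold by the linear ratio of that probe. The number of arrays limits the precision, and no test was run. Probes of the members were named by the files. Over the array 33102 probes were named, 24375 of them through their RefSeq accession (GRCm38.p6). The others of these were named through their symbol or a unique older name, and 8072 probes stayed unnamed. Probe coordinates are those of the files (mm8), and upstream windows are RefSeq's. Python 3.11.15, numpy 2.4.6, pandas 2.3.3, matplotlib 3.10.9, R 4.3.3 and limma 3.58.1 were used, and the scripts were tested on simulated data.

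The members and lists were chosen with earlier results of these data known. All members were named with every probe. Cell type markers were described by list. In the other lists, the genes past 2-fold and detected were named, at most 3 per direction and additive, and for a member past 2-fold the 3 genes nearest in its ratios. H6pd, Abcb1b, Mmp9, Mtf1 and Slc30a1 were named after their values were seen. So were the markers Fabp4, Lpl, Col1a2, Thy1, Slc2a4, Adipoq, Cfd, Cebpa, Plin1, Csf1r and Krt8. Alternatives were the normexp correction with an offset of 50 (also refitted without spots marked for their local background), quantile, median and spike-in scaling, control spots in the percentile, marked spots kept, a floor, thresholds of 1.5-fold and 3-fold, and other choices of probe. Ratios relative to the median of all detected genes and the adipocyte sum without Fabp4 were added after seeing the data. Real-time PCR, blotting and staining were not analysed here.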

Additional observations from a re-analysis of the deposited data

How the results depend on the processing

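No paired analysis was possible because each condition had 1 array. The count of members past 2-fold with bilberry extracts, 0 by the brightest probe, was 8 with spike-in scaling, 1 at a threshold of 1.5-fold, 1 when any probe could pass and 1 when probes were counted in place of genes. Under normexp the bilberry medians relative to all detected genes moved to -0.26 for glucocorticoid-induced genes, 0.46 for repressed genes, -0.35 for chaperones and coregulators and -0.016 for immediate early and ERK feedback genes. Under the refitted normexp they were 0.022, -0.021, -0.014 and 0.16. The fitted background mean of the bilberry array was -345 under normexp and -5.65 under its refit without spots marked for their local background. On the DMSO, delphinidin and cyanidin arrays the normexp mean was -4.99, -6.15 and -3.88. A result was counted as moved when a ratio shifted by more than its software error, a list median by more than 0.2, or a count by more than 1.5 times. Of 101 results, 56 moved with spike-in scaling, 27 under normexp, 11 with quantile normalization, 8 under the refitted normexp and 1 with median scaling. None moved with control spots in the percentile, the deposited table, marked spots kept or a floor. The causes were not tested. A bright and a dim member both moved under normexp with bilberry extracts, and each moved less under its refit. The log2 ratio of Mt2 was 0.14 with the main processing, -0.52 under normexp and 0.08 under the refit. That of probe 2 of Nr3c1 was -0.30, 1.57 and 0.13 in the same order.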
